A study of Mus musculus with 9 samples.

Results

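The genes described here encode the nuclear subunits of the mitochondrial respiratory chain and of ATP synthase, with 2 assembly factors of complex I, in the liver of mice under 2 forms of dietary restriction. They were chosen by symbol: every listed gene whose name begins with Nduf, Uqcr, Cox4 to Cox8 or Atp5, together with Sdha, Sdhb, Sdhc, Sdhd, Cyc1 and Cycs, provided that its mean over the 9 libraries was at least 1 TPM. TPM, a transcript-level unit of RNA-seq, is an abundance already divided by transcript length and library total. Of 5608 listed genes, 62 matched by symbol, and all 62 of these passed the level filter. They comprised 29 complex I genes (5 core subunits, 22 accessory subunits and 2 assembly factors), 2 of complex II, 6 of complex III, 10 of complex IV and 15 of complex V. Sdhb, Sdhc, Cyc1, Cycs and the 13 subunits encoded by the mitochondrial genome were not analysed here. The rule uses no difference between diets.

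Liver RNA came from 9 wild-type (wt) C57BL/6J mice, 3 per diet, and neither age nor sex is given in the sources used here. FED mice ate a standard diet ad libitum. IF mice, intermittently fasted, went without food for 24 h on 2 occasions with ad libitum refeeding between them, and were sacrificed after the second fast. FMD mice received a fasting-mimicking diet for 3 days, a low-calorie, low-protein and fat-rich regimen, and were sacrificed directly afterwards.

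The respiratory chain passes electrons from NADH (complex I) and succinate (complex II) through ubiquinone to complex III, then by cytochrome c to complex IV, which reduces oxygen. Complexes I, III and IV pump protons across the inner mitochondrial membrane, and complex V uses their return to make ATP. In the fasting liver, fatty acid oxidation delivers NADH and reduced flavins to this chain, and the ATP made there supports gluconeogenesis. Transcription of the nuclear subunit genes is known to involve NRF1, GABPA, YY1 and ESRRA.

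The promoters of 5 of these genes are shown because they are the members on which the results below turn. Ndufaf4, Sdhd and Cox7a2l had the largest calls in complexes I, II and IV, and Atp5g3 was the most abundant member. Uqcr11 was the only member called between the 2 diets, and only after the scaling described below. The stretches are from RefSeq on build GRCm38.p6 and are written 5′ to 3′ on the gene's strand. Capitals mark matches to the letters of NRF1 (GCGCA and GCGC with any 1 base between them), GABPA (CCGGAAG) or ESRRA (TCAAGGTCA), on either strand. Ndufaf4 (chr4:24897933-24898082, plus strand) holds an NRF1 match, Sdhd (chr9:50603850-50603909, minus strand) and Uqcr11 (chr10:80406831-80406980, minus strand) a GABPA match, Atp5g3 (chr2:73911327-73911476, minus strand) an ESRRA match, and Cox7a2l (chr17:83514334-83514483, minus strand) none. Each stretch ends 1 base before the annotated start, except that of Uqcr11, which ends 10 bases before it.
Ndufaf4: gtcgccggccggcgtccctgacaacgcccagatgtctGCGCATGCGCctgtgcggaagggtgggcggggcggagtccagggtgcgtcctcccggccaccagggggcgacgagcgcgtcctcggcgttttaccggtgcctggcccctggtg
Sdhd: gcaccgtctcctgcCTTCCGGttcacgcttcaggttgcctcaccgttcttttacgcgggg
Cox7a2l: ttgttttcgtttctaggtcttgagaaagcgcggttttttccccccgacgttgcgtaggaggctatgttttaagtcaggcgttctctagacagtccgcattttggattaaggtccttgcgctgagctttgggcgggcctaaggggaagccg
Uqcr11: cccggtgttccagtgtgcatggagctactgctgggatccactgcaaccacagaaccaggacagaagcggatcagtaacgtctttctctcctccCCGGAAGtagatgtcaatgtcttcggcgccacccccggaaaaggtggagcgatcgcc
Atp5g3: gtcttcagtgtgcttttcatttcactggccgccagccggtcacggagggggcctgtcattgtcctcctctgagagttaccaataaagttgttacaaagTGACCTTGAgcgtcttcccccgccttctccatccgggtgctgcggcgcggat

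Over windows from 250 bases before to 50 bases after the start, 54 of the 62 members had a promoter entry. A gene was counted if any of its windows held the letters. The NRF1 letters occurred in 24.1% of these members, against 13.4% of the 3816 genes tested with an entry and 5.19% of all 27025 genes with an entry. For GABPA the shares were 29.6%, 24.7% and 9.93%. For YY1 (AAGATGGCG) they were 11.1%, 4.38% and 1.64%, and for ESRRA 3.7%, 0.367% and 0.466%, the ESRRA matches being those of Atp5g3 and Sdhd, the latter outside the stretch shown. These are matches of letters and not measured binding sites. The 13 members with the NRF1 letters had a median log2 fold change of 0.32 in IF and 0.46 in FMD vs FED, and the 41 without had 0.21 and 0.33. The 16 members with the GABPA letters lay at 0.20 and 0.27, and the 38 without at 0.27 and 0.38. For YY1, the 6 members with the letters lay at 0.17 and 0.26, and the 48 without at 0.27 and 0.36. In FMD vs IF the NRF1 medians were 0.08 with the letters and 0.09 without. The ranges overlapped: in IF vs FED, members with the NRF1 letters spanned 0.02 to 0.52 and those without -0.09 to 0.51. These differences were not tested.

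The listed genes made up between 26.3% and 29.3% of each library's TPM in FED, 32.9% to 34.9% in IF livers and 34.9% to 43.0% in FMD libraries. Over the 4665 genes tested, the median log2 fold change was 0.24 for IF and 0.48 for FMD, both against FED. Each comparison is therefore given on the values as deposited and after scaling, in which each library is divided by its median ratio to the average library. The scale factors were 0.81 to 0.84 in FED, 0.96 to 1.03 in IF, and 1.44, 1.15 and 1.09 in FMD replicates 1, 2 and 4, so FMD replicate 1 stood apart. Read depth is unknown. The labelled tissue was not checked, because 0 of 8 hepatocyte markers chosen for this are among the listed genes, and other liver genes were not examined for it. In bulk liver, fewer cells of a type and less RNA per cell cannot be told apart.

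Subunit transcripts ranged widely in level. In FED livers the most abundant was Atp5g3, which encodes the membrane-embedded c subunit of ATP synthase, at 1138 ± 121 TPM (SD, n = 3). Cox6b1 (1047 ± 20.6 TPM), Cox4i1 (985 ± 83.2 TPM) and Cox6c (956 ± 59.8 TPM), all of complex IV, came next, and among these 4 genes each neighbour in the order differed by less than the larger of the SDs. Atp5g3 was also the most abundant member in IF and FMD livers. The medians over subunits in FED livers were 216 TPM for complex I, 218 for complex II, 504 for complex III, 438 for complex IV and 474 for complex V. The least abundant members were Cox7a1, the heart and muscle isoform of a complex IV subunit, at 6.13 ± 1.59 TPM, and the assembly factor Ndufaf4 at 7.55 ± 0.53 TPM.

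Summed over all 62 members, FED libraries held 25557, 22762 and 23537 TPM, IF libraries 28937, 30346 and 27916, and FMD libraries 32975, 31225 and 26943. All 6 libraries of restricted mice were above all 3 FED libraries. As a share of the TPM of the listed genes, however, the members made up 8.58% ± 0.19 in FED, 8.54% ± 0.15 in IF and 7.99% ± 0.52 in FMD libraries (SD, n = 3 each). FMD replicates 1 and 4 had the lowest shares, 7.67% and 7.71%, and FMD replicate 2, at 8.60%, lay within the FED range. After scaling, the sums were 29035 ± 2272 in FED, 28969 ± 834 in IF and 24963 ± 2202 in FMD, and every FMD library was lower than every FED and every IF library.

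**Figure D1:**
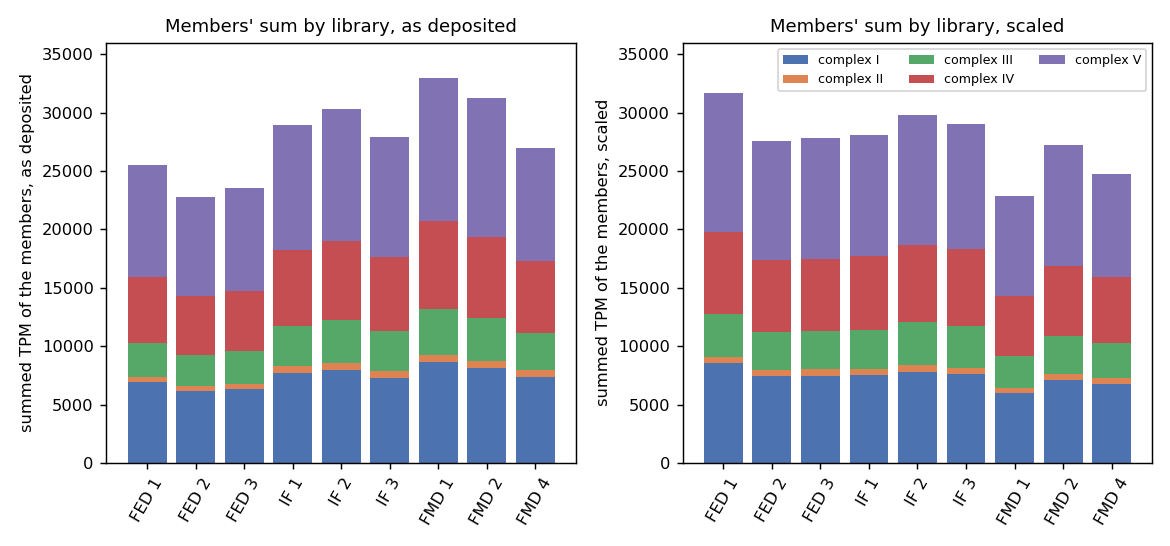
Summed TPM of the members of each complex (stacked bars, y axis) in each of the 9 libraries (x axis), as deposited at left and scaled at right. As deposited, the IF and FMD bars exceed the FED bars, and after scaling the FMD bars, 22855 to 27247, are lower than the IF bars, 28113 to 29778.

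The complexes kept nearly constant proportions. Complex I took 26.9% of the members' TPM in FED, 26.3% in IF livers and 26.5% in FMD libraries, complex III 11.7%, 12.1% and 12.0%, complex IV 22.2%, 22.5% and 22.5%, and complex V 37.3%, 37.1% and 37.1%. Complex II, for which only Sdha and Sdhd were listed, took 1.82%, 1.95% and 1.91%. As deposited, the sum of each complex was 1.19 to 1.30 times the FED sum in IF and 1.24 to 1.33 times in FMD. After scaling, the sums were 0.97 to 1.07 times the FED sum in IF and 0.84 to 0.91 times in FMD.

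Spread within a diet was small in FED and IF livers and larger in FMD livers. The median coefficient of variation over the members was 6.79% in FED, 5.67% in IF and 11.9% in FMD, against 8.39%, 8.55% and 19.6% over the genes tested. As deposited, FMD replicate 4 was the lowest of its group for 55 of 62 members (and for 53.6% of the genes tested), and FMD replicate 1 the highest for 41 (71.8% of the genes tested). After scaling this order turned, with FMD replicate 1 the lowest for 48 members (38.6% of the genes tested) and FMD replicate 2 the highest for 46 (30.6%). FED replicate 1 was the highest of its group for 52 members as deposited and 57 after scaling, where 34.9% and 44.5% of the genes tested were highest there. IF replicate 2 was the highest for 44 and 36 members, against 37.3% and 32% of the genes tested.

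**Figure D2:**
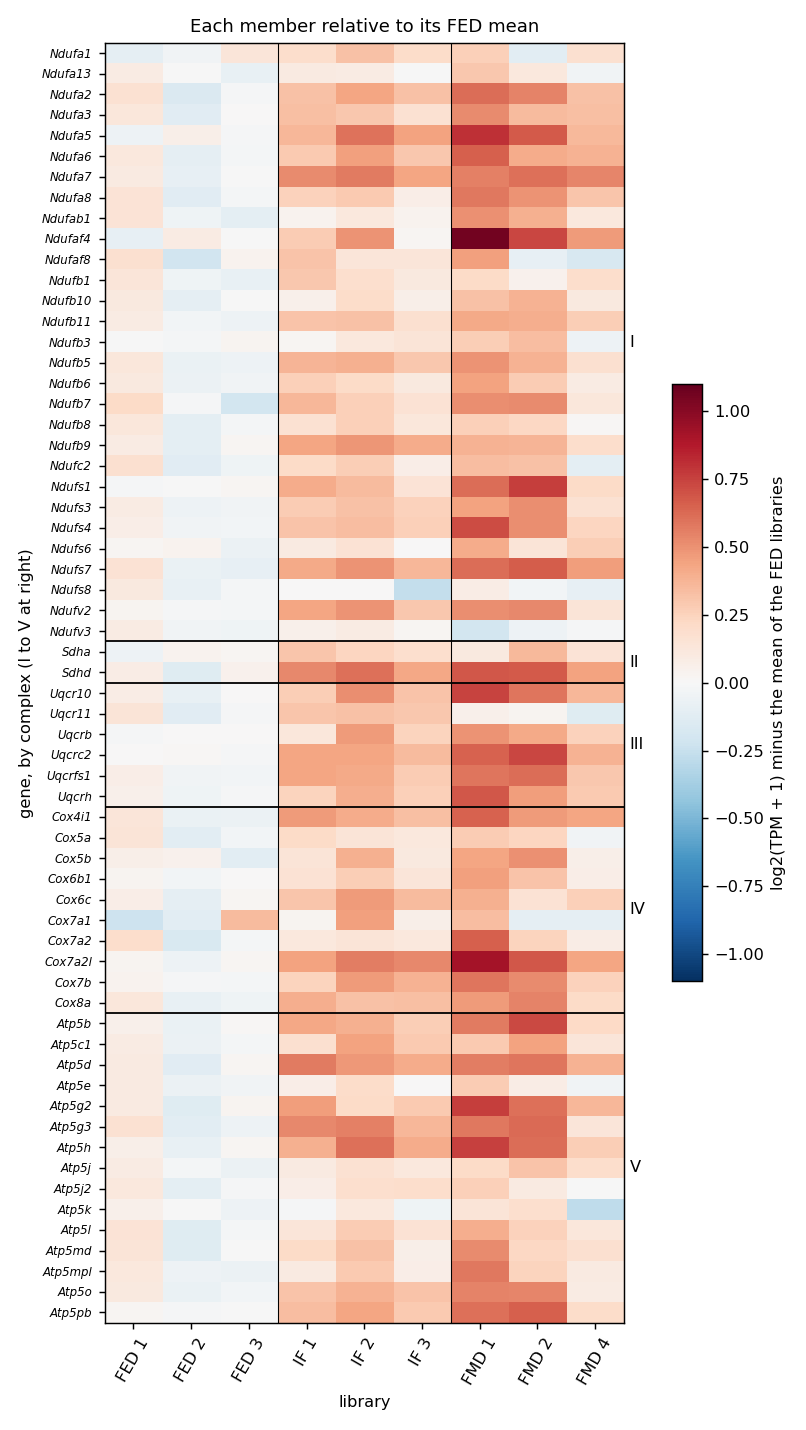
Each row is 1 of the 62 members, grouped by complex, and each column 1 library. Colour gives log2(TPM + 1) minus the mean of the 3 FED libraries, and most rows are above 0 in IF and FMD, with paler columns for FMD replicate 4 and pale or blue rows for Ndufs8, Ndufv3, Uqcr11 in FMD and Atp5k.

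To ask how intermittent fasting changed the respiratory chain genes, IF and FED livers were compared gene by gene. No member passed the call, a limma adjusted p under 0.05 with a fold change above 1.5, in either direction (0 of 62), while 10.3% of the genes tested were called higher and 1.59% lower. At an unadjusted p under 0.05, 33 members (53.2%) passed, against 39.3% of the genes tested. With no fold limit, 14 members (22.6%) were higher at an adjusted p under 0.05, close to the 22% of all genes tested, and 0 were lower. The members' median log2 fold change was 0.27, against 0.24 for the genes tested, and 37 of 62 lay above that median. Changes ranged from -0.09 (Ndufs8) to 0.52 (Sdhd).

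The 14 members came from every complex: Ndufs7 and Ndufv2 of the electron-transferring core of complex I, Ndufa5, Ndufa7 and Ndufb9 of its accessory subunits, Sdhd, Uqcrc2 and Uqcrfs1, Cox4i1, Cox6c and Cox7a2l, and Atp5d, Atp5g3 and Atp5h. All were below a fold change of 1.5. Sdhd (NCBI gene 66925), a membrane anchor of succinate dehydrogenase that carries part of the ubiquinone site, had 219, 189 and 214 TPM in FED, 300, 315 and 279 in IF, and 334, 331 and 282 in FMD libraries. Every IF and FMD library was above every FED library. Its log2 fold change in IF was 0.52 (SE 0.12, adjusted p = 0.0113), or 0.24 after scaling (adjusted p = 0.181), where the IF and FED libraries still did not overlap.

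After scaling, 0 members were called in IF vs FED by limma (against 3.71% higher and 3.43% lower) and 3 passed at an unadjusted p under 0.05 (4.84%, against 29.3%). With no fold limit Ndufs8 alone passed (1.61%, against 6.58% lower and 7.14% higher among the genes tested), and it was lower (log2 fold change -0.36, adjusted p = 0.0495). The scaled libraries did not overlap for 6 members that were higher in IF (9.68%, against 23.1% of genes tested) and 10 that were lower (16.1%, against 22.7%). As deposited, the corresponding counts were 40 higher (64.5%, against 53.8%) and 0 lower (against 6.77%).

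To ask the same of the fasting-mimicking diet, FMD and FED livers were compared. Here 5 of 62 members (8.06%) were called higher and 0 lower, where 35.5% of the genes tested were called higher and 1.61% lower. At an unadjusted p under 0.05, 43 members (69.4%) passed, against 71.8% of the genes tested. With no fold limit 35 members passed, or 56.5% against 64.7% of the genes tested, and 0 were lower (against 2.55%). The members' median log2 fold change was 0.36, a difference of -0.13 from that of the genes tested, and 18 of 62 lay above the latter. With a pseudocount of 5 in place of 1 the direction turned, at 0.019. Libraries did not overlap for 39 members that were higher in FMD (62.9%, against 68% of the genes tested) and for 0 that were lower (against 2.62%). The count of 5 depended on single libraries: it was 10 without FED replicate 1, 1 without FMD replicate 1, 2 without FMD replicate 2 and 15 without FMD replicate 4. After scaling, 0 members were called higher (against 5.47%) and 1, Ndufv3, lower (1.61%, against 5.72%), with 25 at an unadjusted p under 0.05, all lower (40.3%, against 36.1% of the genes tested in either direction).

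The 5 called members belonged to complexes I to IV. None of the 15 complex V members was called, where 35.5% of the genes tested were called higher. Atp5g2 of complex V lay just below the fold limit, at 0.579 (limma adjusted p = 0.0043). With no fold limit 7 of the 15 passed, beside 64.7% of the genes tested. Ndufaf4 (NCBI gene 68493), an assembly factor that helps build complex I and does not remain in it, had 7.03, 8.09 and 7.54 TPM in FED, 9.35, 11.1 and 7.66 in IF, and 16.8, 13.2 and 10.8 in FMD libraries. All FMD libraries exceeded all FED libraries, also after scaling, where it was the only member of 62 with this pattern (1.61%, against 18.3% of genes tested). Its log2 fold change in FMD was 0.76 (SE 0.17, adjusted p = 0.00381), or 0.25 after scaling (adjusted p = 0.156).

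Cox7a2l (NCBI gene 20463), counted here with complex IV, had 146, 136 and 145 TPM in FED, 193, 210 and 205 in IF, and 269, 229 and 192 in FMD libraries. Neither restricted group overlapped with FED, while IF and FMD overlapped with each other. Its log2 fold change was 0.68 in FMD (SE 0.13, adjusted p = 0.00196) and 0.51 in IF (SE 0.13, adjusted p = 0.0181).

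Uqcrc2 (NCBI gene 67003), a matrix-facing core protein of complex III, had 154, 155 and 152 TPM in FED, 209, 209 and 195 in IF, and 242, 256 and 201 in FMD libraries. The FED libraries were almost identical, and all others were above them. The log2 fold change in FMD was 0.59 (SE 0.12, adjusted p = 0.00214) for Uqcrc2 and 0.60 (SE 0.12, adjusted p = 0.00214) for Sdhd. Ndufa5 (NCBI gene 68202), an accessory subunit in the peripheral arm of complex I, was at 135 ± 5.71 TPM in FED, 187 ± 15.4 in IF livers and 208 ± 31.9 in FMD (SD, n = 3 each), with a log2 fold change in FMD of 0.61 (adjusted p = 0.0033). After scaling, Cox7a2l, Uqcrc2, Sdhd and Ndufa5 lay at 0.12, 0.03, 0.04 and 0.06 in FMD, and none passed the test.

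**Figure D3:**
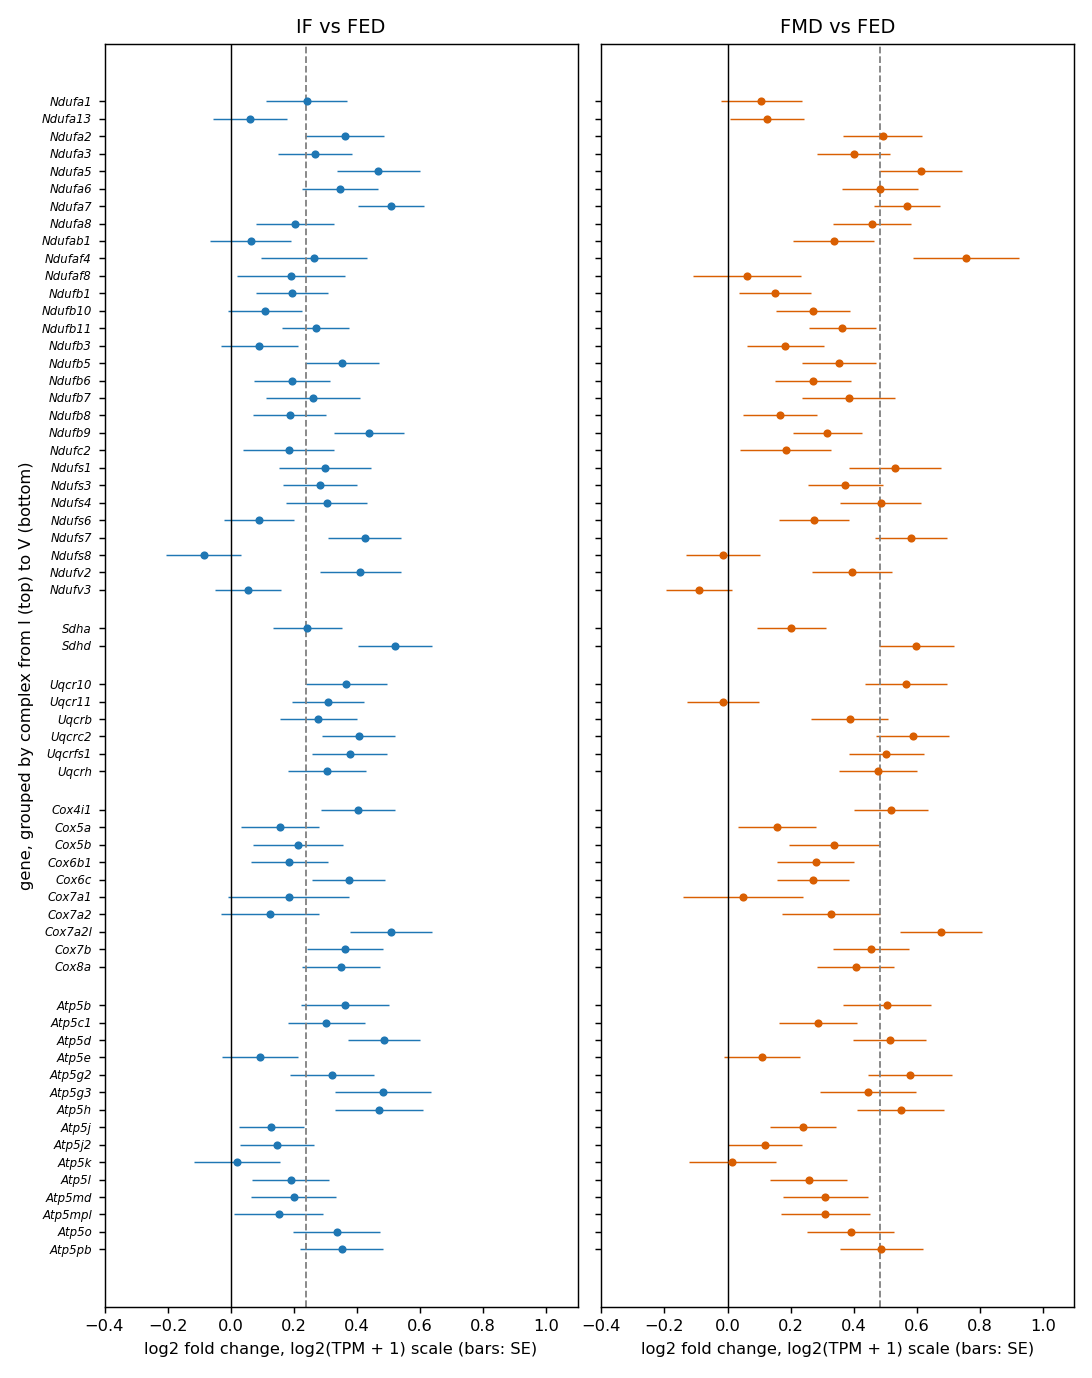
Log2 fold change of each member (x axis, limma on log2(TPM + 1), bars show the SE), by complex from I at the top to V at the bottom, for IF vs FED (left) and FMD vs FED (right). The dashed line is the median of the 4665 genes tested, 0.24 and 0.48; in IF 37 members lie above it and in FMD 18 do.

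Members of the same complex differed in their values. In complex I, the core subunits had a median log2 fold change of 0.30 in IF and 0.39 in FMD, and the accessory subunits 0.22 and 0.33. After scaling the medians were 0.02 and -0.16 for the core subunits and -0.06 and -0.23 for the accessory subunits. The difference between these 2 sets was not tested. Ndufs8 (NCBI gene 225887), which holds 2 iron-sulphur clusters near the ubiquinone site, was an exception among the 5 core subunits: it had 131, 115 and 120 TPM in FED, 122, 122 and 101 in IF, and 129, 119 and 114 in FMD libraries. The 3 groups overlapped, and the log2 fold changes were -0.09 and -0.01 (SE 0.12 each). After scaling they were -0.36 and -0.57 (adjusted p = 0.0495 and 0.00531), with all IF and all FMD libraries below all FED libraries. As deposited, the other core subunits, Ndufs1, Ndufs3, Ndufs7 and Ndufv2, lay between 0.28 and 0.42 in IF and between 0.37 and 0.58 in FMD.

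Ndufv3 (NCBI gene 78330), an accessory subunit of the NADH-oxidising module, had 284, 259 and 258 TPM in FED, 277, 283 and 271 in IF, and 232, 256 and 264 in FMD libraries. Its FMD libraries overlapped with FED but were all below IF, with log2 fold changes of 0.06 in IF and -0.09 in FMD vs FED and -0.15 between FMD and IF (adjusted p = 0.31). After scaling it was the only member called in FMD vs FED, at -0.65 (SE 0.15, adjusted p = 0.0125). Ndufa3 (NCBI gene 66091), the most abundant member of complex I, was at 617 ± 53.4, 742 ± 43.6 and 814 ± 60.5 TPM (SD, n = 3 each), with log2 fold changes of 0.27 in IF and 0.40 in FMD (adjusted p = 0.116 and 0.0126), or -0.01 and -0.16 after scaling.

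In complex II, Sdha (NCBI gene 66945), the flavoprotein that oxidises succinate, had 219, 234 and 231 TPM in FED, 282, 268 and 260 in IF, and 245, 291 and 252 in FMD libraries. Both restricted groups were above FED in every library, by 0.24 and 0.20 on the log2 scale (SE 0.11 each, adjusted p = 0.124 and 0.118). After scaling Sdha lay at -0.04 in IF and -0.35 in FMD (adjusted p = 0.898 and 0.096), with all FMD libraries below all FED libraries. Sdhd, described above, lay higher in both comparisons, and the difference between the 2 genes was not tested.

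In complex III, most genes lay close together: Uqcr10, Uqcrb, Uqcrc2, Uqcrfs1 and Uqcrh lay between 0.28 and 0.41 in IF and between 0.39 and 0.59 in FMD. Uqcr11 (NCBI gene 66594), a small subunit of complex III and the most abundant of its members in FED and IF, lay apart from them in FMD. It had 906, 752 and 813 TPM in FED, 1012, 1030 and 1012 in IF, and 855, 840 and 748 in FMD libraries. IF libraries lay above all others, and FMD libraries overlapped with FED, giving 0.31 in IF (SE 0.11, adjusted p = 0.0716) and -0.01 in FMD (SE 0.11, adjusted p = 0.913). After scaling Uqcr11 lay at 0.03 in IF and -0.57 in FMD (adjusted p = 0.91 and 0.00983). All scaled FMD libraries were below all FED libraries, and the FMD change stayed within the fold limit. Uqcrb (NCBI gene 67530), which binds near the ubiquinone site, was at 414 ± 2.77, 505 ± 61.8 and 544 ± 45.9 TPM (SD, n = 3 each), and after scaling its log2 fold change was -0.17 in FMD.

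In complex IV, Cox4i1 (NCBI gene 12857), the ubiquitous isoform of a regulatory subunit, had 1081, 934 and 939 TPM in FED, 1362, 1305 and 1238 in IF, and 1545, 1359 and 1327 in FMD libraries. Restricted and FED libraries did not overlap, and the log2 fold changes were 0.40 (adjusted p = 0.0295) and 0.52 (adjusted p = 0.00403). After scaling Cox4i1 lay at 0.12 in IF and -0.04 in FMD (adjusted p = 0.504 and 0.841), with overlapping libraries. The isoform pair Cox7a2 and Cox7a1 was represented by both genes. Cox7a2 (NCBI gene 12866), the isoform of liver and most tissues, was at 312 ± 39.6 TPM in FED, 339 ± 3.10 in IF livers and 395 ± 83.8 in FMD. Cox7a1 (NCBI gene 12865) had mean levels of 6.13 ± 1.59, 7.04 ± 1.35 and 6.34 ± 1.35 TPM (SD, n = 3 each). Groups overlapped for both isoforms in each comparison, and neither passed the test (Cox7a2 in FMD 0.33, adjusted p = 0.0807, and Cox7a1 0.05, adjusted p = 0.823). After scaling both lay below 0, at -0.23 and -0.43 in FMD and -0.16 and -0.06 in IF.

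In complex V, the median log2 fold change was 0.30 in IF and 0.31 in FMD. No member was called in either, where 10.3% and 35.5% of the genes tested were called higher. Atp5g3 (NCBI gene 228033) had 1276, 1048 and 1090 TPM in FED, 1638, 1665 and 1460 in IF, and 1700, 1749 and 1242 in FMD libraries. Its FMD range overlapped with FED through FMD replicate 4 alone, and the log2 fold changes were 0.48 in IF and 0.45 in FMD (SE 0.15 each, adjusted p = 0.0423 and 0.0249). After scaling they were 0.20 and -0.11 (adjusted p = 0.386 and 0.624). Atp5g2, which encodes the same mature c subunit, lay at 0.32 and 0.58, or 0.04 and 0.02 after scaling. Atp5k (NCBI gene 11958), which encodes the small membrane subunit e, needed for ATP synthase dimers, had 927, 890 and 857 TPM in FED, 885, 963 and 863 in IF, and 982, 1012 and 735 in FMD libraries. Its groups overlapped, and its log2 fold change was 0.02 in both comparisons (SE 0.14 each), or -0.26 and -0.54 after scaling (adjusted p = 0.204 and 0.0146).

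**Figure D4:**
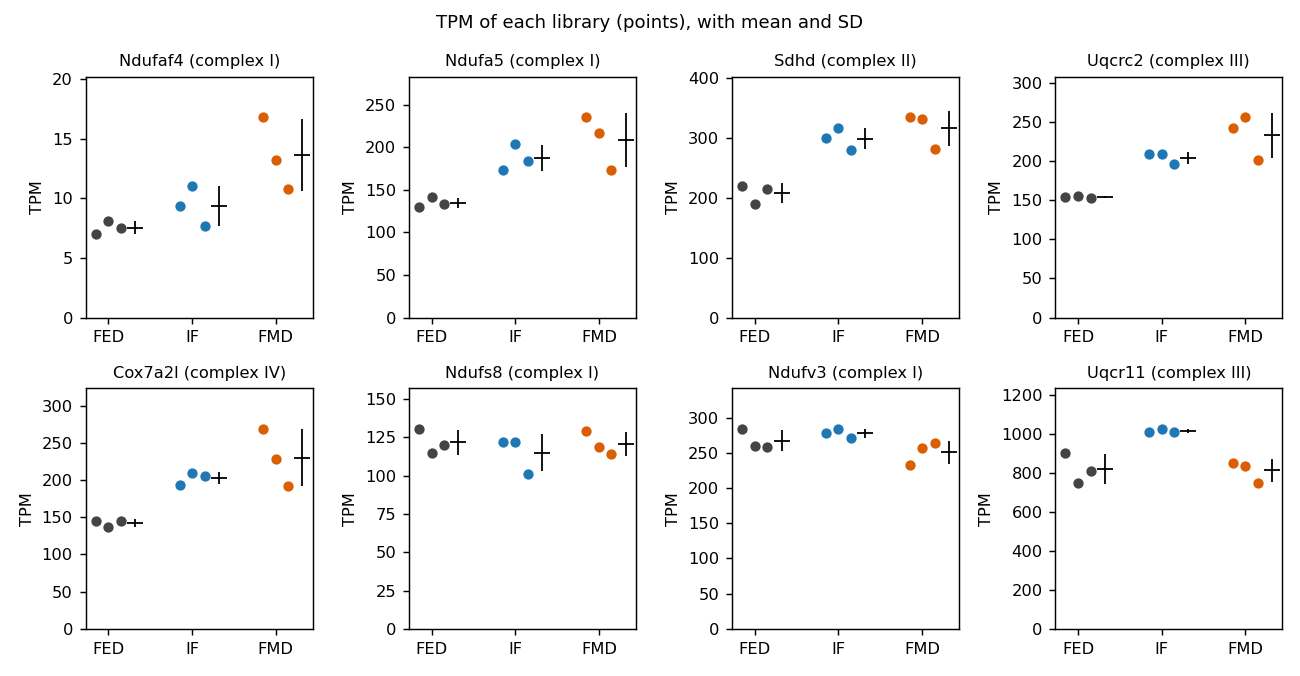
TPM (y axis, from 0) of 8 members in every FED, IF and FMD library (points), with the mean and SD of each group (n = 3). The 5 members called higher in FMD vs FED come first, and Ndufs8, Ndufv3 and Uqcr11 follow, of which Uqcr11 has all IF libraries at 1012 to 1030 TPM and all FMD libraries at 748 to 855 TPM.

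After scaling, the FMD libraries lay low for many members. With no fold limit, 13 of 62 members (21%) were lower in FMD vs FED, against 10.4% of the genes tested, and 0 were higher (against 10.1%). These were Atp5e, Atp5j2 and Atp5k of ATP synthase, Cox5a, Uqcr11, and 8 genes of complex I, namely Ndufa1, Ndufa13, Ndufaf8, Ndufb1, Ndufb3, Ndufb8, Ndufs8 and Ndufv3. The 3 scaled FMD libraries were below the 3 FED libraries for 25 members (40.3%, against 18.2%). Of the 25, complex II contributed Sdha and complex III Uqcr11 and Uqcrb. The scaled median of the members in FMD vs FED was -0.20.

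To compare the diets directly, FMD and IF livers were tested against each other. As deposited, 0 of 62 members were called in either direction by limma, while 4.67% of the genes tested were called higher and 0.472% lower. With no fold limit 0 passed (against 6.9% higher and 0.707% lower), and 2 passed at an unadjusted p under 0.05 (3.23%, against 35.3%). The members' median was 0.09, against 0.24 for the genes tested, and 4 of 62 lay above that median. Libraries did not overlap for 3 members higher in FMD (Atp5j, Ndufa8 and Ndufab1, 4.84% against 33.6%) and 3 lower (Ndufb9, Ndufv3 and Uqcr11, 4.84% against 3.04%). Ndufaf4 had the highest value, 0.49 (SE 0.17, adjusted p = 0.0826), and Uqcr11 the lowest, -0.32 (SE 0.11, adjusted p = 0.0871).

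After scaling, more members lay lower in FMD. Uqcr11 was then called lower (1 of 62, 1.61%, against 1.09% lower and 1.07% higher, or 1.65% and 1.67% with no fold limit), at -0.60 (SE 0.12, adjusted p = 0.0333), with scaled values of 983, 1010 and 1052 in IF and 592, 733 and 688 in FMD libraries. The scaled FMD libraries were below all IF libraries for 29 of 62 members (46.8%, against 13.8% of the genes tested) and above them for 0 (against 12.6%). At an unadjusted p under 0.05, 15 members passed after scaling, all lower (24.2%, against 23.3% of the genes tested in either direction). IF vs FED and FMD vs FED share the FED libraries, so their values are given side by side and no likeness between them is drawn from that. Which of the 2 scales applies to these libraries was not tested.

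The members' transcripts are short. The median length of the 61 members with a GENCODE transcript was 645 bases, against 2019 bases for 4645 genes tested. Across the members, log2 length and log2 fold change had a Pearson r of 0.21 (Spearman rho 0.25) in IF and 0.37 (rho 0.35) in FMD, and across the genes tested r was 0.03 and -0.01. These are correlations across genes, which share libraries and are not independent replicates. The 711 other genes of 544 to 908 bases had median changes of 0.21 in IF and 0.49 in FMD, close to the 0.24 and 0.48 of all genes tested. The part of length in the members' FMD median was not tested. Many small subunit genes have processed pseudogenes, and how reads shared with them were counted is not given in the sources used here.

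Genes around the chain were compared as lists written from general knowledge of each pathway. Fatty acid oxidation feeds the chain. Of 10 listed beta-oxidation genes (of 15), 9 were called higher in IF and 9 in FMD, where 10.3% and 35.5% of the genes tested were called higher, with median log2 fold changes of 1.15 and 1.38. After scaling 8 and 7 were called higher, against 3.71% and 5.47%. Acadl, a long-chain acyl-CoA dehydrogenase, rose by 1.34 in IF and 1.86 in FMD, and Decr1, a reductase for unsaturated fatty acids, by 1.14 and 1.40. The lowest of this list, Echs1, was at 0.40 and 0.31 and was not called. The lowest of the 9, Acaa2, a thiolase, was at 0.64 in IF and 0.59 in FMD, and the highest respiratory chain member was Sdhd at 0.52 in IF and Ndufaf4 at 0.76 in FMD.

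**Figure D5:**
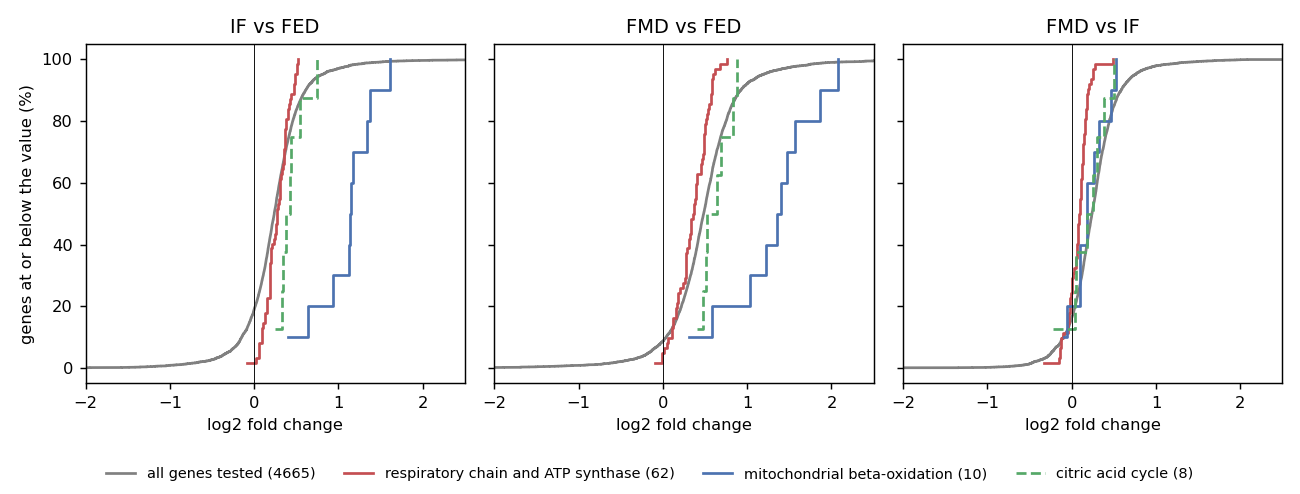
Cumulative share of genes (y axis, %) at or below each log2 fold change (x axis) for the genes tested, the 62 members, and the beta-oxidation and citric acid cycle lists, in the 3 comparisons. The members' curve lies near that of all genes in IF vs FED (medians 0.27 and 0.24) and to its left in FMD vs FED (0.36 and 0.48) and FMD vs IF (0.09 and 0.24), and the beta-oxidation curve lies to the right against FED.

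Of 8 listed citric acid cycle and pyruvate dehydrogenase genes (of 20), 1 was called higher in IF and 4 in FMD, with medians of 0.41 and 0.58, beside 10.3% and 35.5% of the genes tested. Pdk1, a kinase that inhibits pyruvate dehydrogenase, rose by 0.75 in IF (adjusted p = 0.0354), Suclg2, a succinyl-CoA ligase subunit, lay at 0.43 in IF and 0.47 in FMD, and Pdha1, a subunit of pyruvate dehydrogenase itself, rose by 0.68 in FMD (adjusted p = 9.69e-04). Ogdh, of the 2-oxoglutarate dehydrogenase complex, rose by 0.83 in FMD (adjusted p = 0.00161). After scaling, Pdk1 lay at 0.48 in IF and Ogdh and Pdha1 at 0.29 and 0.13 in FMD, none of them called.

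Of 21 other assembly factors (of 42), 1 was called in IF (Sdhaf1, which serves complex II, at 0.71) and 2 in FMD (Cox15 at 0.62, for haem a, and Cox17 at 0.66, a copper chaperone), where 10.3% and 35.5% of the genes tested were called higher. After scaling they lay at 0.44, 0.11 and 0.11, none of them called. Surf1, a complex IV assembly factor, lay at 0.30 in IF and 0.42 in FMD and was not called. The list medians were 0.22 and 0.35, close to those of the members. Of 8 genes for other electron entry and for adenylate, phosphate and anion exchange (of 16), 3 were called in FMD, the outer membrane channels Vdac2 (0.77) and Vdac3 (0.59) and the phosphate carrier Slc25a3 (0.68), a share close to the 35.5% of the genes tested. After scaling they lay at 0.22, 0.03 and 0.12, none of them called. Etfa, which carries electrons from acyl-CoA dehydrogenases, lay at 0.51 and 0.56, below the fold limit.

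Atpif1, the inhibitor of reverse ATP synthase activity, differed between the diets, with 10.15, 8.51 and 11.76 TPM in FED, 6.69, 7.99 and 7.5 in IF, and 17.87, 13.27 and 9.63 in FMD libraries. All IF libraries were below all others. FMD vs IF gave 0.76 (adjusted p = 0.0429), and after scaling 0.50, no longer called. IF vs FED gave -0.40 (adjusted p = 0.151), and after scaling -0.66, called lower (adjusted p = 0.0155). Coq10b, a coenzyme Q binding protein, had 14.65, 14.74 and 13.75 TPM in FED, 15.64, 17.54 and 17.49 in IF, and 35.65, 46.89 and 43.45 in FMD libraries. It rose by 1.47 in FMD vs FED (adjusted p = 2.49e-05) and by 1.26 in FMD vs IF (adjusted p = 0.00123). In both it was the only 1 of 4 listed ubiquinone genes (of 13) called, where 35.5% and 4.67% of the genes tested were called higher. After scaling this held, beside 5.47% and 1.07%. With no fold limit all 4 were higher in FMD vs FED as deposited, beside 64.7% of the genes tested. Coq5, a methyltransferase of the same pathway, lay at 0.49 in IF and 0.27 in FMD, and Coq9, a lipid-binding factor, at 0.37 and 0.44.

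Of 14 regulators of mitochondrial gene expression, 5 were listed, and Nrf1, Gabpa, Esrra and Ppargc1a were not analysed here. Tfam, which packages and transcribes mitochondrial DNA, had 12.03, 11.37 and 13.16 TPM in FED, 18.38, 19.77 and 16.83 in IF, and 22, 19.51 and 17.91 in FMD libraries, with no overlap between FED and either diet. It rose by 0.66 in FMD (adjusted p = 0.00152) and lay at 0.55 in IF, below the fold limit. Tfb2m, a mitochondrial transcription factor, rose by 0.94 in FMD, with 0.57 in IF. Pprc1, a coactivator of the PGC-1 family, rose by 0.80 in FMD and differed from IF by 0.66 (adjusted p = 0.037). Polrmt, the mitochondrial RNA polymerase, and Yy1 lay at 0.35 and 0.14 in IF and 0.40 and 0.49 in FMD and were not called. After scaling, Tfb2m lay at 0.40, Pprc1 at 0.38 and Tfam at 0.13 in FMD, none of them called.

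Few markers of other cells were listed. Of 10 macrophage markers only Cd68 was listed, at 6.35 to 10.35 TPM in FED, 3.14 to 5.99 in IF livers and 5.75 to 64.02 in FMD libraries, the highest in FMD replicate 1. The sum of the 3 listed stellate cell and fibroblast markers (of 8), Dcn, Col1a1 and Pdgfrb, was 66.6 to 93.8 TPM in FED, 122 to 160 in IF livers and 107 to 217 in FMD libraries, and the 1 listed bile duct marker (of 5), Krt19, was at 0.76 to 4.07 TPM in all. Cela1, the 1 listed pancreas acinar marker (of 4), was at 23.8 to 30.0 TPM in FED, 5.78 to 7.57 in IF livers and 3.23 to 4.17 in FMD libraries. None of these was at 0, and their part in the members' values was not tested. Over the fits that left out 1 library each, as deposited and scaled, the members' median in FMD vs FED differed from that of the genes tested by -0.26 to -0.06, and with a pseudocount of 5 and all libraries by 0.019.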

How the data were processed

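Liver RNA of 9 mice, 1 per library and 3 per diet, was sequenced by the authors from strand-specific mRNA libraries. The deposited values are TPM per gene, made by the authors; their processing notes name mm39 and DESeq2, and the aligner is not given in the sources used here. The table holds 5608 genes and part of each library's TPM, with no counts, so depth and counting error are unknown. Genes with a mean of at least 1 TPM (4665) were tested on log2(TPM + 1) with limma 3.58.1 in R 4.3.3, in 1 fit of all 9 libraries, the prior variance following mean level, with p-values adjusted by Benjamini-Hochberg over all genes. A call needed an adjusted p under 0.05 and a fold change above 1.5. Fold changes are on the log2(TPM + 1) scale, which understates changes of low genes. Members given per library were, for each complex, the most abundant, the called one with the largest change and those with the lowest change, with called members, tissue isoform pairs and those whose call differed after scaling. From each pathway list, genes were named from the 3 with the smallest adjusted p per diet, though not all of those are given. All tested regulators were named. List extremes, lone called genes, Atpif1 and members named from counts were chosen after their values were seen. The members and lists were chosen with earlier results of these data known. Promoter sequences, from RefSeq GRCm38.p6, were searched by exact letters with Python 3.11.15. The fit was tested on simulated data. Alternatives were other pseudocounts, filters, scalings, thresholds, a replicate block, a length and GC trend and leaving out each library.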

Additional observations from a re-analysis of the deposited data

Results flagged for a closer look

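Flagged for a closer look were 4 genes whose values differed in direction or level between the diets as deposited, not all of them passing the test. Ndufv3 had opposite directions against FED in IF and FMD, and every FMD library was below every IF library, with a log2 difference of -0.15 in FMD vs IF that did not pass the test. The opposite values, 0.06 and -0.09 (SE 0.10 each), lie within 1 SE of 0, and after scaling both were negative, at -0.22 and -0.65. The difference in direction was not tested otherwise. FMD exceeded IF by 0.76 for Atpif1, 1.26 for Coq10b and 0.66 for Pprc1 on the log2 scale, each passing limma's test of that difference as deposited, and Coq10b also after scaling.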

How the results depend on the processing

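The number of members called in FMD vs FED, 5 and all higher, was 3 higher with a pseudocount of 5 and 35 higher with no fold limit, 0 with quantile normalization or scaling to the listed sum, 1 lower with scaling, with scaling and a length and GC trend removed, or with scale factors computed without the members, and 13 lower with scaling and no fold limit. In IF vs FED it was 14 higher with no fold limit and 1 lower with scaling and no fold limit, and in FMD vs IF it was 1 lower with scaling, with scaling and no fold limit, and with factors computed without the members. The fits with scaling and no fold limit and those with factors computed without the members were chosen after seeing the data. The members' median relative to the genes tested in FMD vs FED was 0.019 with a pseudocount of 5. Leaving out 1 library gave 0 to 15 called members in FMD vs FED, 0 in IF vs FED and 0 to 1 in FMD vs IF, and relative medians of -0.26 to -0.059 in FMD vs FED and -0.26 to -0.10 in FMD vs IF. The replicate block gave 13 called members in FMD vs FED, all higher, or 2 with scaling, both lower, and Uqcr11 was at 0.039 in FMD vs FED under the block alone. With each gene's group mean removed, samples with the same replicate number correlated at 0.0035 to 0.18 over 7 pairs, all above 0. The 20 other pairs ranged from -0.20 to 0.21, on both sides of 0. What the replicate number marks is not given in the sources used here, so no pairing was established and a shared factor was not tested further. With quantile normalization, these log2 fold changes turned negative: in IF vs FED Atp5k -0.26, Cox7a1 -0.049, Cox7a2 -0.16, Ndufa3 -0.023, Ndufv3 -0.28, Sdha -0.10, Uqcrb -0.021 and in FMD vs FED Atp5k -0.47, Cox7a1 -0.48, Cox7a2 -0.16, Ndufa3 -0.12, Sdha -0.26, Uqcrb -0.095. With the block and scaling together, these log2 fold changes turned negative: in IF vs FED Atp5k -0.26, Cox7a1 -0.060, Cox7a2 -0.16, Ndufa3 -0.014, Ndufv3 -0.22, Sdha -0.037, Uqcrb -0.0025 and in FMD vs FED Atp5g3 -0.071, Atp5k -0.50, Cox4i1 -0.11, Cox7a1 -0.36, Cox7a2 -0.19, Ndufa3 -0.22, Sdha -0.41, Uqcrb -0.18. With scaling, these log2 fold changes turned negative: in IF vs FED Atp5k -0.26, Cox7a1 -0.060, Cox7a2 -0.16, Ndufa3 -0.014, Ndufv3 -0.22, Sdha -0.037, Uqcrb -0.0025 and in FMD vs FED Atp5g3 -0.11, Atp5k -0.54, Cox4i1 -0.040, Cox7a1 -0.43, Cox7a2 -0.23, Ndufa3 -0.16, Sdha -0.35, Uqcrb -0.17. With scaling to the sum of the listed TPM, these log2 fold changes turned negative: in IF vs FED Atp5k -0.27, Cox7a1 -0.066, Cox7a2 -0.16, Ndufa3 -0.020, Ndufv3 -0.23, Sdha -0.043, Uqcrb -0.0084 and in FMD vs FED Atp5k -0.43, Cox7a1 -0.34, Cox7a2 -0.11, Ndufa3 -0.043, Sdha -0.24, Uqcrb -0.056. With scaling and a length and GC trend removed, these log2 fold changes turned negative: in IF vs FED Atp5k -0.23, Cox7a1 -0.033, Cox7a2 -0.10, Ndufv3 -0.21, Sdha -0.0078 and in FMD vs FED Atp5g3 -0.050, Atp5k -0.46, Cox4i1 -0.020, Cox7a1 -0.37, Cox7a2 -0.17, Ndufa3 -0.084, Sdha -0.35, Uqcrb -0.10. Over the 18 fits that left out 1 library, as deposited and scaled, the log2 fold changes ranged as follows: in IF vs FED Atp5k -0.31 to 0.052, Cox7a1 -0.18 to 0.36, Cox7a2 -0.24 to 0.22, Ndufa3 -0.075 to 0.33, Ndufaf4 -0.091 to 0.39, Ndufs8 -0.40 to 0.0049, Ndufv3 -0.27 to 0.10, Sdha -0.052 to 0.27, Uqcr11 -0.034 to 0.38, Uqcrb -0.084 to 0.35 and in FMD vs FED Atp5g3 -0.24 to 0.60, Atp5k -0.67 to 0.16, Cox4i1 -0.087 to 0.59, Cox7a1 -0.54 to 0.22, Cox7a2 -0.31 to 0.45, Cox7a2l 0.079 to 0.80, Ndufa3 -0.22 to 0.46, Ndufa5 -0.016 to 0.74, Ndufaf4 0.21 to 0.90, Ndufs8 -0.61 to 0.039, Ndufv3 -0.76 to -0.038, Sdha -0.47 to 0.25, Sdhd -0.033 to 0.68, Uqcr11 -0.64 to 0.056, Uqcrb -0.23 to 0.45, Uqcrc2 -0.079 to 0.69 and in FMD vs IF Uqcr11 -0.67 to -0.26. The cause of these changes was not tested. Read depth is unknown, so no counting error could be given, and the listed genes are part of each library, so that scale factors rest on that part.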
